A study of Mus musculus with 6 samples.

Results

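The 10 genes described here encode 5 fibroblast growth factor (FGF) ligands (Fgf1, Fgf2, Fgf7, Fgf10 and Fgf18), 3 FGF receptors (Fgfr1, Fgfr2 and Fgfr3) and the 2 Sprouty feedback inhibitors Spry1 and Spry2. They were chosen by gene symbol, not by their level, from 56884 genes counted in 6 single-cell RNA libraries, and all 10 were found. The study asked what pericyte-derived factors do in lung and brain. 4 libraries came from mouse lung at postnatal day 21 and 2 from cerebral cortex at postnatal day 12, and each was 1 library of cells pooled from 2 mice whose sex is not given. Control mice were Bdnf lox/lox or Hgf lox/lox for the lung and Nodal lox/lox for the cortex, without CreERT2. The mutants (Bdnf iPCKO, Hgf iPCKO and Nodal iPCKO) carried the same floxed alleles together with the Pdgfrb(BAC)-CreERT2 transgene, which is active in pericytes and also in other PDGFRB-expressing mural cells. By the labels, tamoxifen was given on postnatal days 1 to 3 in all 6 groups. Lung cells were depleted of CD45+ and Ter119+ cells, and the cortex, freed of meninges, was cleared of myelin debris.

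FGF ligands bind receptor tyrosine kinases together with heparan sulfate, and the receptors act mainly through the RAS-ERK pathway. In the lung, FGF7 and FGF10 from mesenchymal cells act on the epithelial form of FGFR2, and FGF18 is known from alveolar septation. FGF1 and FGF2 lack a classical secretion signal. In the brain, astrocytes carry FGFR1, FGFR2 and FGFR3, and Fgfr3 is a standard marker gene of the astrocyte lineage. SPRY1 and SPRY2 are induced by ERK signalling downstream of many receptor tyrosine kinases, FGF receptors among them, and dampen it.

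Spry1 and Spry2 both had higher levels in astrocyte-like cells of the Nodal iPCKO library, as described further on, and their promoter windows are therefore shown here, from 250 bases before to 50 bases after the gene's start, as RefSeq gives them on build GRCm38.p6. Capitals mark CCGGAA, a core sequence of ETS factors such as ETV4 and ETV5, searched on both strands (reverse complement TTCCGG). The Spry1 window, chr3:37639697-37639996 on the plus strand, held no match. The Spry2 window, chr14:105896770-105897069 on the minus strand, held 1 match that begins 34 bases after the start. Of 32851 such mouse windows, 4894 (14.9%) held at least 1 match, so the letters are common, and the match is a description of the sequence only.
Spry1: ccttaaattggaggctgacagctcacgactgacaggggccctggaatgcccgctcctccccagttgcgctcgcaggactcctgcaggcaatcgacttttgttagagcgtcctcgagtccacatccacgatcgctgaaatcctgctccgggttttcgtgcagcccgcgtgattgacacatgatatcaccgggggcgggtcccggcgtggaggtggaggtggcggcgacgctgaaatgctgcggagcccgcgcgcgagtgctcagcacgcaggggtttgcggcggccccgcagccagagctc
Spry2: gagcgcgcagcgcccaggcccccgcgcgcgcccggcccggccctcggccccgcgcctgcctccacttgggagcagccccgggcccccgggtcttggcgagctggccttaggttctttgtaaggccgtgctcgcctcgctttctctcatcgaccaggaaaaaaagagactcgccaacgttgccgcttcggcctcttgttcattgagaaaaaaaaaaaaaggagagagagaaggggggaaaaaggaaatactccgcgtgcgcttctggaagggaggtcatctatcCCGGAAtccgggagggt

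On build GRCm39, Fgf1 lies on chromosome 18, Fgf2 on 3, Fgf7 on 2, Fgf10 on 13, Fgf18 on 11, Fgfr1 on 8, Fgfr2 on 7, Fgfr3 on 5, Spry1 on 3 and Spry2 on 14. The canonical Spry1 transcript spans positions 37693897 to 37698755 with 3 exons, and that of Spry2 spans 106128766 to 106134792 with 2 exons. Overlaps with other coding genes were searched for the canonical transcripts only. The annotated Fgfr2 gene spans 129763471 to 132725079, far beyond its canonical transcript, which ends at 129868272, so overlaps over the rest of it were not examined. Among the canonical transcripts, Fgf2 overlaps Nudt6, and Fgf7 overlaps Fam227b, each on the opposite strand. The strand setting of the counting is not given in the sources used here, so reads of these overlapping genes may not have been told apart.

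The 6 libraries held 33889545 to 186701379 unique molecular identifiers (UMIs, 1 per captured RNA molecule) and 2977 to 22959 cells after filtering, with a median of 2781 to 8025.5 UMIs per cell. Pairs of libraries shared 21 to 457 cell barcodes, where 17.8 to 457 would be shared by chance. The counts lay on both sides of that number, and above it for Nodal iPCKO with Hgf control (108 against 80.2) and with Hgf iPCKO (116 against 88.6) and for Bdnf iPCKO with Hgf control (432 against 389). Cells were clustered and named from marker genes, so each class is called by the type it resembles, and 4.434% to 14.54% of cells stayed unnamed. Levels are UMIs of a gene per 1000000 UMIs (CPM) of a cell type in a library, with an exact Poisson 95% interval where given, which covers counting error only. In pericyte-like cells, the targeted gene was 30.0 CPM in Bdnf control and 24.3 in Bdnf iPCKO for Bdnf, and 70.3 in Hgf control and 9.80 in Hgf iPCKO for Hgf. Nodal was 108.57 CPM in Nodal control and 0 of all UMIs in 407 pericyte-like cells of Nodal iPCKO, and 3 UMIs, the limit used for a count of 0, would be 1.16 CPM. Deleted exons were not examined, so a transcript that lacks them would still be counted.

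Some lung classes also held RNA of other cell types. In lung pericyte-like cells, the summed level of 9 endothelial markers was 26.6% to 37.4% of that in endothelial-like cells, and the 10 AT2 (alveolar type 2 epithelial) markers reached 8.96% to 30.2% and the 10 AT1 (alveolar type 1 epithelial) markers 11.02% to 20.4% of their own class, and no marker of the 3 lists was at 0 in any of the 4 libraries. Of the 11 pericyte markers, 8 to 11 were highest in this class, whereas in Hgf iPCKO only 3 of the 10 matrix fibroblast markers were highest in the matrix fibroblast-like class. Matrix fibroblast-like cells carried AT2 markers at 11.7% to 33.0%. Levels were therefore also computed with each cell assigned by its own markers, without clusters, a choice listed among the alternatives. In that assignment, 81 to 231 pericyte-like cells per lung library carried 0.456% to 2.44% of the AT1 level, and 167 to 507 matrix fibroblast-like cells carried 0.776% to 1.29% of the AT2 level. A cell with a second class near its best score was left unnamed there, by the same markers. Low levels of other markers by own markers, here and below, therefore follow from the rule and do not measure how free of other RNA these cells were. RNA outside cells (barcodes with 10 to 100 UMIs) is given beside levels close to or below it, and its part in them was not tested.

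**Figure D1:**
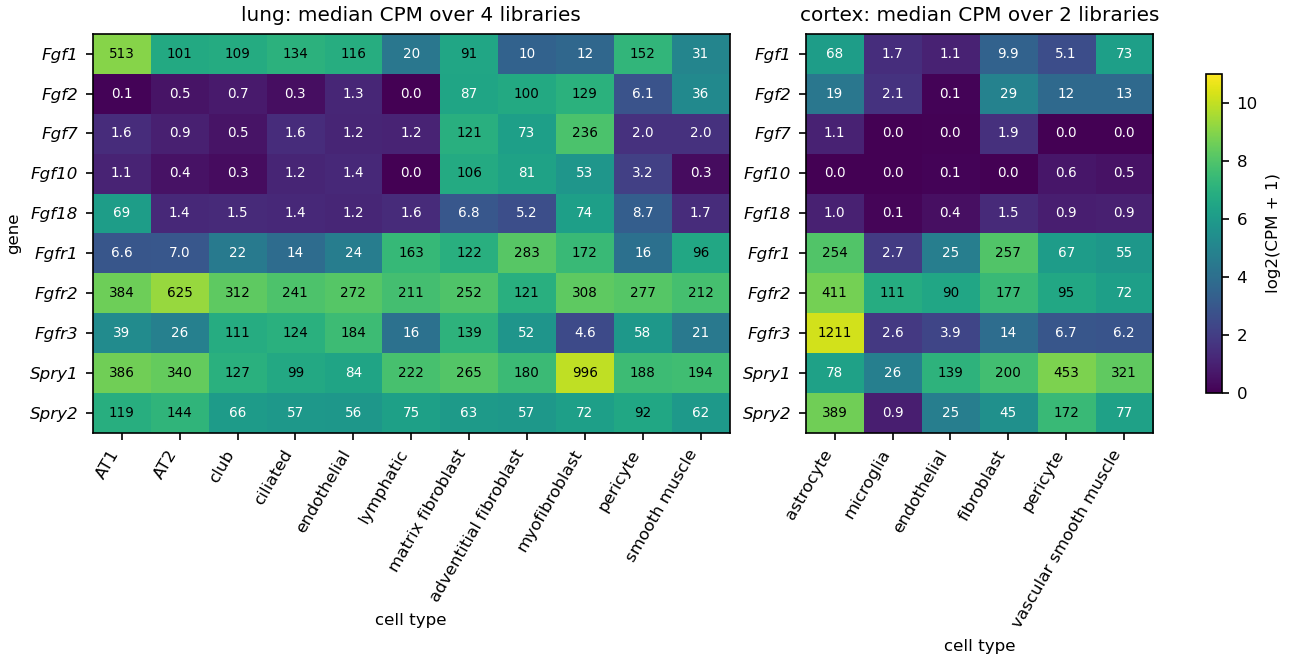
Median CPM of the 10 genes (rows) in each cell type (columns) of the 4 lung and 2 cortex libraries, with cells assigned by clusters; colour is log2(CPM + 1) and the number in each square is the median CPM. Fgf1 was highest in AT1-like cells of the lung, Fgfr3 in cortex astrocyte-like cells (1211), and Fgf7, Fgf10 and Fgf18 were near 0 in the cortex.

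Among the ligands, Fgf1 was highest in AT1-like and aerocyte-like cells of the lung. AT1-like cells, the thin cells of gas exchange, had 589 CPM in Bdnf control, 438 in Bdnf iPCKO, 684 in Hgf control and 353 in Hgf iPCKO. No other lung class, taken as a whole, reached these levels: the next by median were pericyte-like cells at 151.6, followed by ciliated-, endothelial-, club- and AT2-like cells at 133.8, 115.9, 109.1 and 101.1 CPM, whose ranges over the 4 libraries overlapped one another. With each cell assigned by its own markers, the pericyte-like level was 10.5, 33.7, 33.6 and 10.9 CPM in Bdnf control, Bdnf iPCKO, Hgf control and Hgf iPCKO, in place of 165.4, 137.8, 165.7 and 95.6. The AT1-like level in that assignment was 389 to 673 CPM, so the second place of pericyte-like cells rested on the clusters and the first place of AT1-like cells did not. RNA outside cells held Fgf1 at 116.2 to 166 CPM in the lung, and the AT2-like level (78.2 to 133 CPM) lay below it in each of the 4 libraries. Within endothelial-like cells, Fgf1 was 361 to 475 CPM in aCap-like cells (aerocytes, the capillary cells that line the gas exchange surface) against 45.9 to 96.3 CPM in gCap-like cells (general capillary cells), with no overlap between the libraries. The aCap-like level overlapped that of AT1-like cells, and it was the higher of the 2 in Bdnf iPCKO (454 and 438 CPM) and Hgf iPCKO (361 and 353 CPM). In the cortex, Fgf1 was 85.2 and 59.97 CPM in vascular smooth muscle-like cells of Nodal control and Nodal iPCKO, 74.7 and 60.7 CPM in astrocyte-like cells and at most 16.7 CPM in every other class compared.

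In the lung, Fgf2, Fgf7 and Fgf10 were highest in the mesenchymal classes. Fgf2 was 213, 183, 75.6 and 45.1 CPM in myofibroblast-like cells of Bdnf control, Bdnf iPCKO, Hgf control and Hgf iPCKO. The same 4 libraries gave 141, 147, 59.7 and 29.6 CPM in adventitial fibroblast-like cells, which surround larger vessels and airways, so both libraries of the Bdnf pair lay above both of the Hgf pair in these classes. Mesothelial-like cells, which cover the lung surface and reached 50 cells in Bdnf iPCKO alone (147 cells), had 178 CPM of Fgf2 there, near the myofibroblast-like level. In the epithelial lung classes and in endothelial-like cells as a whole, Fgf2 was at most 2.32 CPM. In the cortex, Fgf2 was 39.7 and 17.4 CPM in fibroblast-like cells and 16.8 and 22.2 CPM in astrocyte-like cells of Nodal control and Nodal iPCKO, and the astrocyte-like cells held 54.7% and 64.4% of its UMIs. Fgf7, the keratinocyte growth factor, was 269, 212, 131 and 259 CPM in myofibroblast-like, 166, 120.3, 121.5 and 91.3 in matrix fibroblast-like, and 92.2, 61.4, 67.6 and 77.7 CPM in adventitial fibroblast-like cells. Every other lung class had at most 10.9 CPM of Fgf7 by clusters. With each cell assigned by its own markers, smooth muscle-like cells had 46.7 and 23.4 CPM in Bdnf control and Bdnf iPCKO, from 28 and 29 UMIs.

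Fgf10, needed for lung branching and alveolar epithelial growth, was 126, 114.6, 97.6 and 69.7 CPM in matrix fibroblast-like cells of Bdnf control, Bdnf iPCKO, Hgf control and Hgf iPCKO. Adventitial fibroblast-like cells, at 64.6 to 84.6 CPM, overlapped these values, and myofibroblast-like cells, at 48.6 to 59.9 CPM, lay below both. With each cell assigned by its own markers, the Fgf10 level of matrix fibroblast-like cells was 187, 193, 153.7 and 181 CPM, above every library of the other 2 fibroblast classes (51.4 to 79.5 CPM). In that assignment, Fgf7 in the same cells was 252, 218, 182 and 177 CPM and Fgf2 was 154, 196, 98.9 and 78.6 CPM. All 3 ligands thus stood higher in matrix fibroblast-like cells than the clusters had given, and Fgf1 in them stood lower, at 30.4, 22.2, 28.3 and 0 CPM.

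Fgf18 had a pair of separate sources in the lung. Myofibroblast-like cells had 78.1, 69.8, 119.8 and 10.2 CPM in Bdnf control, Bdnf iPCKO, Hgf control and Hgf iPCKO, where the last 2 rest on 42 and 10 UMIs. AT1-like cells had 68.2, 65.1, 75.0 and 70.0 CPM in the same libraries, a narrower range. The remaining lung classes compared had at most 11.6 CPM of Fgf18. In the cortex, Fgf7 was at most 2.36 CPM, Fgf10 at most 1.21 CPM and Fgf18 at most 2.18 CPM in every class compared. Neuron-like cells, a small class not compared between genotypes, held 5 of the Fgf10 UMIs (62.5%) in Nodal control and 24 (75%) in Nodal iPCKO.

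**Figure D2:**
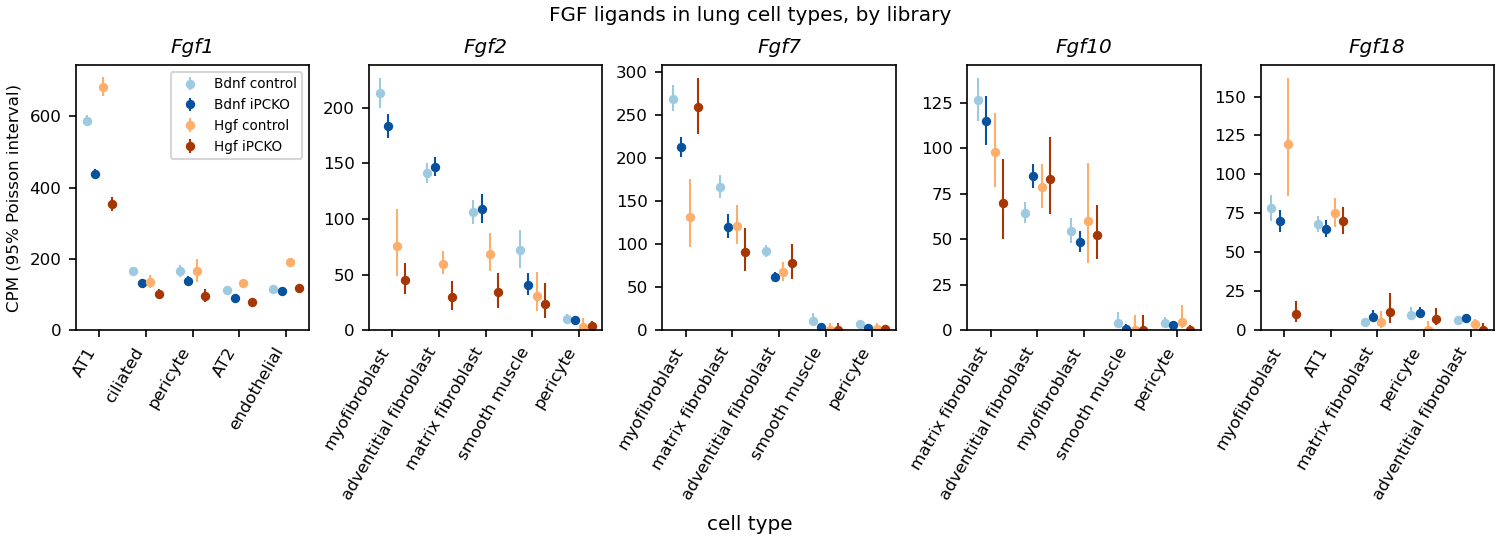
CPM of the FGF ligands in lung cell types by library, with cells assigned by clusters; points are single libraries and bars are exact Poisson 95% intervals. Among the classes shown, Fgf1 was highest in AT1-like cells in all 4 libraries, and Fgf7 and Fgf10 stood above 10.9 CPM in the 3 fibroblast classes and in no other class compared.

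Of the receptors, Fgfr1 had its highest medians by clusters in adventitial fibroblast-, myofibroblast- and lymphatic-like cells (134 to 211 CPM) of the lung. In the cortex it was highest in fibroblast- and astrocyte-like cells. Lung pericyte-like cells had only 4.69 to 18.4 CPM. Adventitial fibroblast-like cells had 279, 287, 279 and 337 CPM of Fgfr1 in Bdnf control, Bdnf iPCKO, Hgf control and Hgf iPCKO. Myofibroblast-like cells followed with 174.5, 170.5, 157 and 305 CPM, and their Hgf iPCKO value alone overlapped the adventitial range. Matrix fibroblast-like cells had 113.0 to 133 CPM by clusters and 184, 256, 224 and 311 CPM when each cell was assigned by its own markers. AT1- and AT2-like cells lay between 4.33 and 14.3 CPM, the lowest Fgfr1 medians of the lung. In the cortex, fibroblast-like cells had 242 and 272 CPM and astrocyte-like cells 257 and 250.5 CPM in Nodal control and Nodal iPCKO, which overlapped.

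Fgfr2, the receptor for FGF7 and FGF10, was highest in AT2-like cells, the surfactant-producing progenitors of the alveolus. They had 599, 674, 651 and 552 CPM in Bdnf control, Bdnf iPCKO, Hgf control and Hgf iPCKO, above every library of the next class, AT1-like cells with 337, 482, 308 and 431 CPM. Fgfr2 was also counted in every other class, with the lowest medians at 120.8 CPM in adventitial fibroblast-like cells of the lung and 72.2 CPM in vascular smooth muscle-like cells of the cortex. Of its UMIs, 19.2% lay in entries whose count was not whole, against at most 1.67% for the other 9 genes. Such entries arise where reads map to several positions, but they also hold UMIs of other reads. RNA outside cells held Fgfr2 at 755 to 968 CPM in the lung, above its level in any class compared of the same library, so low Fgfr2 levels are not read as expression by those cells. In the cortex, astrocyte-like cells were highest with 397 and 425 CPM.

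Fgfr3 was the strongest astrocyte gene of the family. Cortex astrocyte-like cells had 1224 CPM (1198 to 1250.2) in Nodal control and 1199 CPM (1175 to 1223) in Nodal iPCKO, whereas no other cortex class compared exceeded 21.2 CPM. In the lung, endothelial-like cells had 177, 272, 120.3 and 190.6 CPM in Bdnf control, Bdnf iPCKO, Hgf control and Hgf iPCKO. Matrix fibroblast-like cells had 125, 107.3, 204.5 and 152.8 CPM by clusters, and 184, 206, 323 and 275 CPM when each cell was assigned by its own markers, so that the class with the highest median changed from endothelial-like to matrix fibroblast-like (240.7 CPM). The 2 classes overlapped in both assignments. Ciliated-like cells had 101.1 to 130.7 CPM and club-like cells 98.2 to 139 CPM of Fgfr3, and RNA outside cells of the lung had 59.9 to 122 CPM. Myofibroblast-like cells had at most 7.90 CPM. Adventitial fibroblast-like cells had 39.6 to 88.2 CPM by clusters and 45.3, 25.6, 41.0 and 39.6 CPM by own markers. The own-marker levels lay below RNA outside cells of the same library in each case, so they are not read as expression by those cells.

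Spry1 was highest in lung myofibroblast-like cells, with 1002, 1037, 990.0 and 675 CPM in Bdnf control, Bdnf iPCKO, Hgf control and Hgf iPCKO, above every library of every other lung class. AT1-like cells (302.6 to 471 CPM) and AT2-like cells (293 to 406 CPM) came next and overlapped, and RNA outside cells had 144 to 257 CPM. As immediate early genes, which dissociation can induce, 10 were summed here: Fos, Fosb, Jun, Junb, Egr1, Atf3, Ier2, Dusp1, Hspa1a and Hspa1b. Hspa1a and Hspa1b are heat shock genes and are included under that name throughout. The summed level of the 10 genes was 35757 to 43421 CPM in the same myofibroblast-like cells, whereas AT1-like cells had 1396 to 2493 CPM. The part of these genes in the Spry1 level was not tested. In the cortex, pericyte-like cells led with 414 and 492 CPM of Spry1 in Nodal control and Nodal iPCKO, followed without overlap by vascular smooth muscle-like cells (291 and 350.4), fibroblast-like cells (207 and 193), endothelial-like cells (142 and 136) and astrocyte-like cells (45.8 and 111).

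Spry2 in the lung was highest in alveolar epithelial cells. AT2-like cells had 152, 158.5, 132 and 135 CPM in Bdnf control, Bdnf iPCKO, Hgf control and Hgf iPCKO, which overlapped AT1-like cells at 132, 139.9, 105.1 and 96.4 CPM. RNA outside cells of the lung held Spry2 at 65.1 to 94.9 CPM. The other 9 lung classes had medians between 56.0 and 91.7 CPM. Of these, pericyte-like cells had 86.6, 107.7, 96.9 and 85.0 CPM beside 83.2, 94.9, 79.4 and 65.1 CPM outside cells of the same libraries, above it in each, and beyond the Poisson interval in Bdnf iPCKO and Hgf iPCKO. In the cortex, Spry2 was ordered differently from Spry1: astrocyte-like cells had 290.1 and 488 CPM in Nodal control and Nodal iPCKO, and pericyte-like cells had 166 and 178 CPM, with no overlap.

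For the comparison of each mutant with its control, every genotype was 1 library, so no test between genotypes was possible and none is given. A gene was counted in a cell type where both libraries had at least 50 cells of it and together at least 20 UMIs of the gene, and it was called past the fold where its CPM differed at least 1.5-fold. Log2 ratios are iPCKO over control, with conditional exact 95% intervals that cover counting error alone and not differences between mice, pools or runs. To show how far 2 libraries of mice without CreERT2 differ, Hgf control was also set against Bdnf control. There, 26 of 89 combinations of gene and cell type (29.2%) were past the fold, 6 higher and 20 lower in Hgf control, against 32.1% of all genes counted in the same classes (13.8% higher and 18.3% lower). Of the 20 lower, 15 were ligands: Fgf2 was lower in 6 of the 7 classes where it was counted and Fgf7 in 4 of 6. These 2 libraries differ in floxed allele, in depth and in the minimum of UMIs set here for a cell (1500 in Bdnf control and 700 in Hgf control). These differ together, and the causes cannot be told apart.

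In the Bdnf pair, 16 of 96 combinations were past the fold, 10 higher and 6 lower in Bdnf iPCKO. This share of 16.7% is near the 17.5% of all genes (9.87% higher and 7.59% lower). By role, 3 of 41 ligand combinations were higher and 5 lower, 4 of 33 receptor combinations were higher and 1 lower, and 3 of 22 Sprouty combinations were higher and 0 lower. The median log2 ratio of the 96 was 0.06, beside -0.01 over all genes. With each cell assigned by its own markers, 10 of the 16 stayed past the fold in the same direction, 2 were under it, 4 no longer reached 20 UMIs, and 7 others passed it.

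The receptor Fgfr3 in endothelial-like cells had the most UMIs of the combinations past the fold in the Bdnf pair. It was 177 CPM in Bdnf control and 272 CPM in Bdnf iPCKO, a log2 ratio of 0.62 (0.56 to 0.68). The overlap over clusters sums, for each cluster, the smaller of the 2 libraries' shares of the class. It was 69.4% for these endothelial-like cells, and 1 gCap-like cluster held 102 cells of Bdnf control and 1506 of Bdnf iPCKO. Higher values stood in all 4 endothelial subtypes: 114.3 and 184 CPM in gCap-like, 239 and 330.3 in aCap-like, 237 and 348 in arterial-like and 224 and 353 in venous-like cells. The same subtypes were also higher in the mutant library of the Hgf pair, with 48.0 and 118.2 CPM in gCap-like, 215 and 399.8 in aCap-like, 162 and 208 in arterial-like and 103.2 and 134 CPM in venous-like cells. In all endothelial-like cells of the Hgf pair, Fgfr3 was 120.3 and 190.6 CPM (log2 ratio 0.66, 0.58 to 0.75), but the ratio turned to -0.14 when only cells with at least 3000 UMIs were kept. Fgfr3 in RNA outside cells was also higher in the mutant libraries, at 59.9 and 80.8 CPM in the Bdnf pair and 67.5 and 122 CPM in the Hgf pair. The 2 control libraries differed from each other as much: in gCap-like cells, Fgfr3 was 2.38-fold lower in Hgf control than in Bdnf control.

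**Figure D3:**
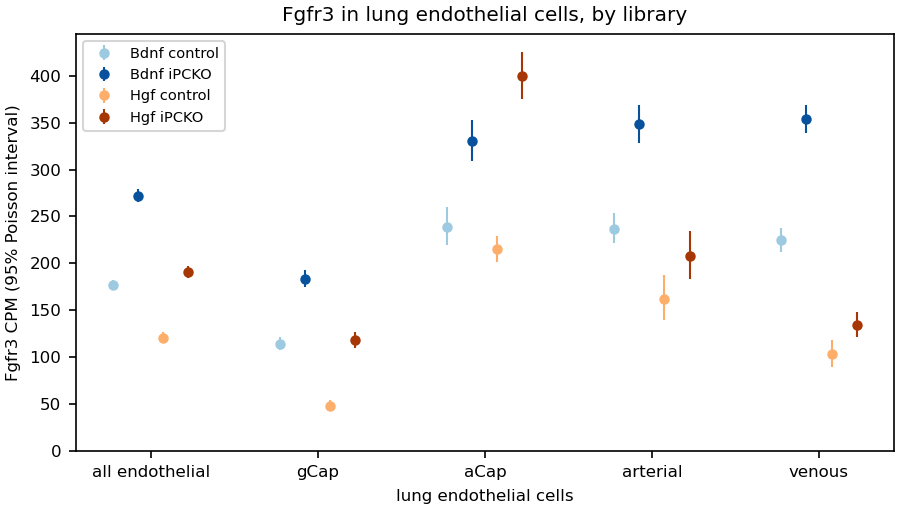
Fgfr3 CPM in all lung endothelial-like cells and in each endothelial subtype by library, with exact Poisson 95% intervals. In each column the iPCKO point of a pair lies above its own control, and the 2 controls differ, for example 114.3 against 48.0 CPM in gCap-like cells.

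Fgfr1 in AT1-like cells of the Bdnf pair was 4.52 CPM in Bdnf control and 14.3 CPM in Bdnf iPCKO (45 and 136 UMIs), a log2 ratio of 1.66 (1.16 to 2.18). Dusp6, which encodes an ERK phosphatase and is a common readout of FGF signalling, was 38.8 and 124 CPM in the same cells (log2 ratio 1.68, 1.51 to 1.85), and their immediate early genes summed to 1396 and 2493 CPM. Markers of other types were higher in these cells as well, at 201 and 354 CPM for the 9 endothelial, 22.2 and 41.2 for the 11 pericyte and 1431 and 2122 for the 10 AT2 markers, and RNA outside cells held Fgfr1 at 59.6 and 69.1 CPM. The part of these values in the Fgfr1 difference was not tested. Spry2 in adventitial fibroblast-like cells was 48.1 and 80.3 CPM (0.74, 0.55 to 0.93), whereas Fgf7 in these cells was 92.2 and 61.4 CPM (-0.59, -0.76 to -0.42). Assigned by their own markers, these cells gave 43.3 and 69.0 CPM of Spry2 (0.67) and 94.3 and 65.2 CPM of Fgf7 (-0.53), the second under the fold. In the clusters, their pericyte markers summed to 203 and 466 CPM and their AT2 markers to 2709 and 4236 CPM. Lymphatic-like cells had Spry1 at 141 and 236 CPM (0.74, 0.44 to 1.05) and Spry2 at 56.1 and 93.1 CPM (0.73, 0.24 to 1.23). Their AT1 markers were 958 and 1580 CPM and their AT2 markers 6040 and 9606 CPM, and by own markers Spry1 was 135 and 217 CPM (0.68) and Spry2 was 60.01 and 82.5 CPM (0.46, -0.07 to 0.99), under the fold. RNA outside cells of the Bdnf pair held Spry1 at 224 and 257 CPM and Spry2 at 83.2 and 94.9 CPM, above the Spry1 level of lymphatic-like cells and the Spry2 levels of both classes. In pericyte-like cells, where Bdnf was targeted, 1 combination was past the fold by clusters: Fgf7, at 7.08 and 2.34 CPM, from 17 and 8 UMIs. RNA outside cells held Fgf7 at 27.8 and 12.9 CPM in the same libraries, above both levels, and its part was not tested. Fgf1 in pericyte-like cells was 165.4 and 137.8 CPM (-0.27) by clusters and 10.5 and 33.7 CPM when each cell was assigned by its own markers, so even its direction depended on the assignment. Fgfr1 and Fgfr3 in these cells passed the fold only by own markers, at 15.2 and 27.4 CPM (0.85, -0.53 to 2.32) and 24.8 and 46.3 CPM (0.90, -0.15 to 2.02).

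In the Hgf pair, 28 of 79 combinations were past the fold, 13 higher and 15 lower in Hgf iPCKO, a share of 35.4% beside 34.8% of all genes (16.9% higher and 17.9% lower). Ligands were mostly on the lower side, with 11 of 26 lower and 2 higher. Receptors were mostly on the higher side, with 10 of 31 higher and 3 lower, and of 22 Sprouty combinations 1 was higher and 1 lower. AT1-, AT2-, endothelial- and myofibroblast-like cells of these 2 libraries mostly fell into different clusters, with an overlap over clusters of 7.52% to 9.58%. Without these 4 classes, an alternative added after seeing the data, 15 of 48 combinations were past the fold. The share of all genes past the fold over the remaining classes was not computed. With each cell assigned by its own markers, 18 of the 28 stayed past it in the same direction, 4 were under it, 6 no longer reached 20 UMIs, and 6 others passed it.

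Fgf1 was past the fold and lower in Hgf iPCKO in 7 of the 10 classes where it was counted. In AT1-like cells it was 684 and 353 CPM (log2 ratio -0.95, -1.06 to -0.85), in AT2-like cells 133 and 78.2 CPM (-0.77, -0.87 to -0.66) and in endothelial-like cells 191 and 117.3 CPM (-0.70, -0.79 to -0.62). Each cell assigned by its own markers gave 673 and 389 CPM in AT1-like, 134 and 78.5 in AT2-like and 187 and 110.7 in endothelial-like cells, all past the fold. Of the 7 classes, 4 stayed past the fold in this assignment, and lymphatic-, pericyte- and smooth muscle-like cells no longer reached 20 UMIs of Fgf1. By clusters, the AT2 markers in AT1-like cells were 0.911% and 18% of the AT2-like level. By own markers, where the rule keeps cells with such markers out, they were 0.890% and 1.13%. Fgf1 in RNA outside cells was also lower, at 166 and 120.6 CPM, and its part in these differences was not tested. The Bdnf pair gave a smaller difference of Fgf1 in AT1-like cells, at 589 and 438 CPM (-0.43). Of the 11 classes of that pair, 1 was past the fold for Fgf1, higher in Bdnf iPCKO, and 0 were lower, with a median log2 ratio of -0.21. The controls differed too, with Fgf1 past the fold and higher in Hgf control than in Bdnf control in 4 of 11 classes and lower in 0, and in endothelial-like cells Hgf control alone stood apart, at 191 CPM beside 114.4 in Bdnf control, 110.1 in Bdnf iPCKO and 117.3 in Hgf iPCKO. Fgf1-rich aCap-like cells held 4291650 of 13256753 endothelial-like UMIs in Hgf control and 2446492 of 15582067 in Hgf iPCKO. In Bdnf control and Bdnf iPCKO they held 2348449 of 21637741 and 2758498 of 22996348. The part of this share in the endothelial-like Fgf1 levels was not tested.

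Fgf18 in myofibroblast-like cells had the largest ratio of the Hgf pair, at 119.8 and 10.2 CPM (log2 ratio -3.55, -4.71 to -2.53), from 42 UMIs in 145 cells and 10 UMIs in 560 cells. In the same cells, Fgf7 was 131 and 259 CPM (0.98, 0.52 to 1.47), Fgfr1 was 157 and 305 CPM (0.96, 0.54 to 1.40) and Fgf2 was 75.6 and 45.1 CPM (-0.72, -1.45 to 0.04). Myofibroblast-like cells thus differed in both directions within 1 family, and their clusters were mostly not shared. Their AT2 markers summed to 11120 and 871 CPM by clusters and 1053 and 595 CPM by own markers, where Fgf18 was 168 and 12.4 CPM (-3.76). Fgf2 was also lower in adventitial fibroblast-like cells (59.7 and 29.6 CPM) and, by clusters, in matrix fibroblast-like cells (68.5 and 34.0 CPM). By own markers, the adventitial values were 61.8 and 23.7 CPM and the matrix fibroblast-like values 98.9 and 78.6 CPM (-0.33, -1.15 to 0.43), the last under the fold, whereas Fgfr2 in matrix fibroblast-like cells passed it in that assignment alone, at 132 and 220 CPM (0.73). Fgfr1 was past the fold in 7 of 11 classes, higher in 6 and lower in 1, club-like cells (21.4 and 12.9 CPM). By own markers, 5 of the 7 stayed past it, 1 was under it and 1 had too few UMIs. In AT1-, AT2-, club-, ciliated- and pericyte-like cells, Fgfr1 was at most 23.2 CPM in any lung library, below the RNA outside cells given further on. The part of that RNA in these differences was not tested. In pericyte-like cells, where Hgf was targeted, Fgf1 was 166 and 95.6 CPM, Fgfr1 was 4.69 and 18.4 CPM (3 and 22 UMIs) and Fgfr3 was 31.3 and 71.1 CPM, while epithelial and endothelial markers were present in both libraries as given above. RNA outside cells held Fgfr1 at 41.7 and 41.8 CPM and Fgfr3 at 67.5 and 122 CPM. By own markers, none of the 3 reached 20 UMIs in pericyte-like cells, and Spry2 passed the fold there, at 168 and 89.7 CPM (-0.90, -1.70 to -0.09).

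Spry1 in endothelial-like cells was 65.9 CPM in Hgf control and 171 CPM in Hgf iPCKO, a log2 ratio of 1.37 (1.26 to 1.484). It was highest in gCap-like cells, at 78.3 and 258 CPM (1.72, 1.57 to 1.88), and was higher also in venous-like cells (57.5 and 146 CPM) and arterial-like cells (13.3 and 41.9 CPM). In aCap-like cells it was 67.1 and 73.6 CPM, under the fold. Other ERK-induced feedback genes in these endothelial-like cells stood the other way: Dusp6 was 374 and 189.5 CPM (-0.98, -1.05 to -0.92), Spry4 was 146 and 76.5 CPM (-0.94, -1.04 to -0.83) and Phlda1 was 61.2 and 33.5 CPM (-0.87, -1.03 to -0.71). The Dusp6 difference lay in gCap-like (471 and 179 CPM) and aCap-like cells (258 and 57.6 CPM), whereas Dusp6 was 275 and 241 CPM in venous-like cells and 504 and 515 CPM in arterial-like cells, the 1 endothelial cluster with many cells of both libraries (285 and 344). In that cluster Spry4 was 89.4 and 50.6 CPM (-0.82, -1.30 to -0.35), lower as in the whole class. The endothelial-like cells of the 2 libraries of this pair had an overlap over clusters of only 8.26%. Spry2 in them was 45.0 and 52.1 CPM, and RNA outside cells held Spry1 at 179 and 144 CPM. Immediate early genes in these cells summed to 12456 and 14034 CPM. In the Bdnf pair, endothelial-like Spry1 was 71.6 and 97.2 CPM, under the fold.

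In the Nodal pair, 11 of 39 combinations were past the fold, 7 higher and 4 lower in Nodal iPCKO, a share of 28.2% beside 16.0% of all genes (6.97% higher and 9.0% lower). Of these 11, 8 rested on fewer than 50 UMIs in both libraries together, and with a minimum of 50 UMIs 3 of 29 were past the fold. These were Spry1 and Spry2 in astrocyte-like cells and Fgf2 in fibroblast-like cells. The share of all genes past the fold at a minimum of 50 UMIs was not computed, so 3 of 29 stands without one. Spry1 in astrocyte-like cells was 45.8 CPM (40.9 to 51.1) in Nodal control and 111 CPM (104 to 118.5) in Nodal iPCKO, a log2 ratio of 1.28 (1.09 to 1.47). Spry2 was 290.1 CPM (277.5 to 303) and 488 CPM (473.5 to 504), a log2 ratio of 0.75 (0.67 to 0.83). RNA outside cells held Spry1 at 74.8 and 78.9 CPM, above the astrocyte-like level of Nodal control and below that of Nodal iPCKO, and Spry2 at 72.7 and 74.5 CPM, below both. Each cell assigned by its own markers gave nearly the same values, 43.8 and 108.0 CPM for Spry1 and 289 and 487 CPM for Spry2. Of the 11, 8 stayed past the fold in that assignment, 2 were under it and 1 had too few UMIs.

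The receptors did not differ in this way in the same astrocyte-like cells, with Fgfr1 at 257 and 250.5 CPM, Fgfr2 at 397 and 425 CPM and Fgfr3 at 1224 and 1199 CPM. Further feedback genes were higher there: Dusp6 at 270.2 and 447 CPM (0.73, 0.65 to 0.81), Spry4 at 59.0 and 92.7 CPM (0.65, 0.48 to 0.83), Phlda1 at 14.1 and 24.7 CPM and Dusp5 at 8.21 and 15.3 CPM. The immediate early genes of these cells summed to 3818 and 6826 CPM, and their part in the Sprouty difference was not tested. Astrocyte-like cells fell mainly into 3 clusters, which held 298, 231 and 92 cells of Nodal control and 272, 167 and 268 cells of Nodal iPCKO. Spry2 was higher in the mutant library within each of them, at 243 and 394 CPM, 261 and 410 CPM, and 479 and 613 CPM. Spry1 was 36.0 and 68.5 CPM, 31.7 and 36.0 CPM, and 99.7 and 187 CPM in the same order. Dusp6 was higher within each cluster too, at log2 ratios of 0.38, 0.28 and 0.52, and so was Spry4, at 0.49, 0.32 and 0.38, but all 6 were under the fold that both genes passed over all astrocyte-like cells. The third cluster, which held more of the Nodal iPCKO cells, had the highest Sprouty levels and also the highest immediate early gene level, at 9090 and 11260 CPM. In cortex pericyte-like cells, where Nodal was targeted, Spry1 was 414 and 492 CPM and Spry2 166 and 178 CPM, both under the fold.

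**Figure D4:**
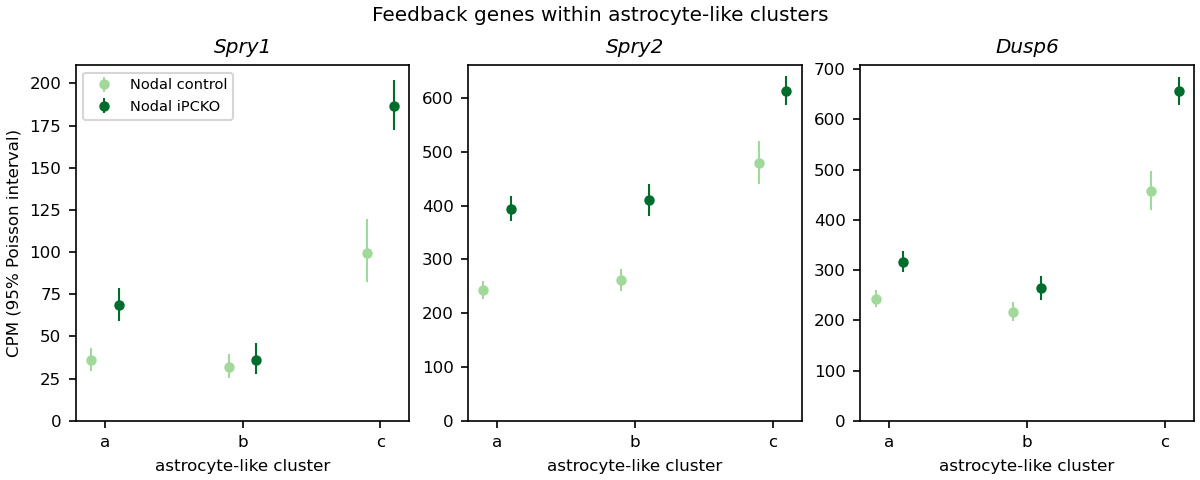
Levels of feedback genes in CPM within the 3 main astrocyte-like clusters (a, b and c) of Nodal control and Nodal iPCKO, with exact Poisson 95% intervals. Spry2 lies higher in Nodal iPCKO in each cluster, for example 243 and 394 CPM in cluster a.

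**Figure D5:**
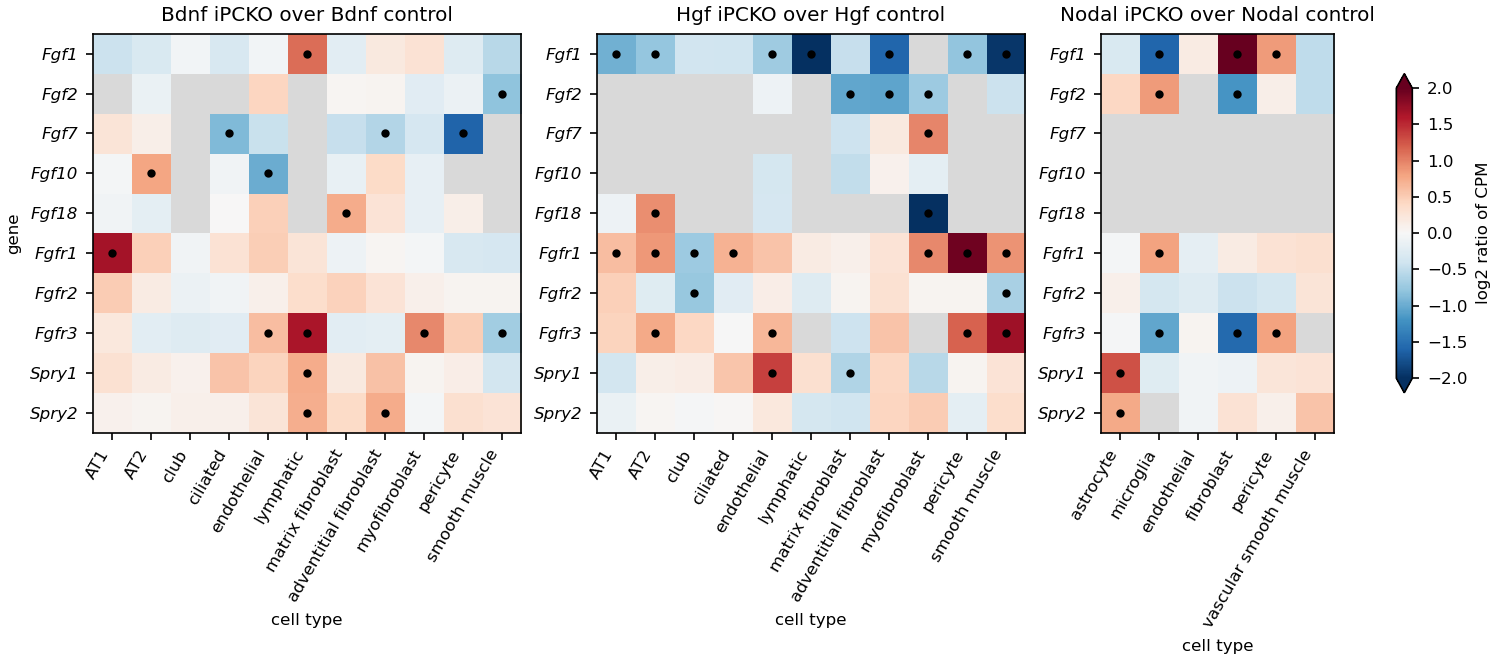
Log2 ratio of CPM, iPCKO over control, for the 10 genes (rows) in each cell type (columns) of the 3 pairs, for combinations with at least 20 UMIs and cells assigned by clusters. Past the 1.5-fold limit, the Hgf pair has lower Fgf1 in 7 of 10 classes and higher Fgfr1 in 6 of 11. Some of these levels lie below those of RNA outside cells. Over all genes of that pair, 17.9% of combinations are lower and 16.9% higher. The Nodal pair has higher Spry1 and Spry2 in astrocyte-like cells.

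Other genes of the pathway were counted from lists chosen by function, in the same classes. Feedback and target genes (Spry4, the Spred, Dusp and Etv genes, Il17rd and Phlda1, of which 12 of 13 listed were in the table) were higher in 23 and lower in 5 of 107 combinations of the Bdnf pair, higher in 11 and lower in 34 of 93 of the Hgf pair, and higher in 11 and lower in 2 of 63 of the Nodal pair. Over all genes, 9.87% of combinations were higher and 7.59% lower in the Bdnf pair, 16.9% and 17.9% in the Hgf pair, and 6.97% and 9.0% in the Nodal pair, against 21.5% and 4.67%, 11.8% and 36.6%, and 17.5% and 3.17% for this list. Their median log2 ratios were 0.11, -0.22 and 0.17, beside -0.01, -0.02 and -0.03 over all genes. Immediate early genes were also higher in Bdnf iPCKO in 10 of the 11 lung classes, for example at 2214 and 3177 CPM in AT2-like, 9927 and 13864 in endothelial-like and 3887 and 6409 in pericyte-like cells, and their part in the list was not tested. Between the controls, 25 of 100 were higher and 13 lower in Hgf control, beside 13.8% and 18.3% of all genes. In the Hgf pair, the examples with most UMIs were Phlda1 in AT2-like cells (326 and 119.9 CPM), Dusp6 and Spry4 in endothelial-like cells as given above and Dusp6 in AT2-like cells (99.6 and 43.5 CPM). Immediate early genes of this pair summed to 2859 and 1580 CPM in AT2-like cells and 12456 and 14034 CPM in endothelial-like cells. Their part in these examples was not tested.

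Of the other receptors and co-receptors, Fgfr4 in matrix fibroblast-like cells was lower in both lung mutants, at 100.5 and 57.7 CPM in the Bdnf pair (log2 ratio -0.80, -1.09 to -0.52) and 124 and 63.1 CPM in the Hgf pair (-0.97, -1.54 to -0.43), both by clusters in a class that carried AT2 markers as given above. Fgfbp1, which encodes a carrier that releases FGFs from the matrix, was higher in AT1-like cells of both, at 49.2 and 78.6 CPM (0.67, 0.51 to 0.84) and at 46.4 and 179.5 CPM (1.95, 1.70 to 2.21). AT1-like cells of the Hgf pair mostly fell into different clusters and differed in AT2 markers, as given above. The list as a whole was split, with 7 higher and 8 lower of 36 in the Bdnf pair, 10 higher and 3 lower of 25 in the Hgf pair and 2 higher and 3 lower of 13 in the Nodal pair. These are 19.4% and 22.2%, 40% and 12%, and 15.4% and 23.1%, beside 9.87% and 7.59%, 16.9% and 17.9%, and 6.97% and 9.0% of all genes. In the cortex, Fgfbp1 was 40.3 and 23.7 CPM in endothelial-like cells and Fgfbp3 was 43.4 and 23.6 CPM in astrocyte-like cells. Median log2 ratios of this list were 0.08, 0.47 and -0.15.

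Heparan sulfate enzymes, which shape the co-receptor sugar chains, were higher in 12 and lower in 4 of 106 combinations in the Bdnf pair, higher in 13 and lower in 10 of 87 in the Hgf pair and 1 each way of 47 in the Nodal pair, with medians of 0.02, 0.04 and 0.03. These are 11.3% and 3.77%, 14.9% and 11.5%, and 2.13% and 2.13%, against the same shares of all genes as above. In AT1-like cells of the Hgf pair, Ndst1 was 2087 and 1019 CPM (-1.03, -1.09 to -0.98) and Hs2st1 was 960.5 and 388 CPM (-1.31, -1.40 to -1.22). Sulf1, a sulfatase that trims these chains, was 71.1 and 25.7 CPM in endothelial-like cells (-1.47, -1.64 to -1.30). Both classes mostly fell into different clusters in the 2 Hgf libraries, as given above. Ratios of list genes were not recomputed by own markers. Adaptors such as Frs2 and Gab1 were mostly under the fold, with 2 higher and 0 lower of 73, 10 higher and 3 lower of 70, and 1 higher and 2 lower of 40. Their shares were 2.74% and 0%, 14.3% and 4.29%, and 2.5% and 5%, with medians of 0.09, 0.11 and 0.01. Other FGF genes reached the minimum in only 31, 13 and 12 combinations, of which 7, 1 and 0 were higher and 4, 6 and 4 lower. In the Hgf and Nodal pairs, every combination past the fold was of Fgf11, Fgf12, Fgf13 or Fgf14. These encode intracellular factors and not secreted ligands, so these 2 pairs show no ligand of this list past the fold. The shares of the list were 22.6% and 12.9%, 7.69% and 46.2%, and 0% and 33.3%, with medians of -0.04, -0.40 and -0.23. Fgf9 in myofibroblast-like cells of the Bdnf pair was 16.3 and 30.1 CPM (0.88, 0.49 to 1.29).

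Set beside each other, vascular cells of lung and cortex differed in the levels of some FGF genes. Organ, age and dissociation differ together here and cannot be told apart. Of 27 combinations counted in endothelial-like, pericyte-like and smooth muscle-like cells, the 4 lung libraries lay above both cortex libraries in 15 and below both in 6, and 6 overlapped. For all genes counted in these classes, lung lay above in 30.2% and cortex in 22.6%. Of the 15, 3 were Fgfr2, whose level in RNA outside cells was also higher in the lung (755 to 968 CPM) than in the cortex (291 and 373 CPM) and above all of these cells. Fgf1 in RNA outside cells was likewise 116.2 to 166 CPM in lung and 13.2 and 17.6 CPM in cortex, and Fgfr3 was 59.9 to 122 and 121 and 145 CPM. Also among the 15 were Fgf2, Fgf7, Fgf10 and Fgf18 in endothelial-like cells, at most 2.32, 2.50, 3.65 and 1.87 CPM in lung. Fgf7 in pericyte-like cells, at most 7.08 CPM in lung, was another. RNA outside lung cells held these 4 genes at 3.01 to 17.1, 5.98 to 27.8, 5.08 to 22.7 and 5.81 to 12.4 CPM. It lay above each of these levels in the same library, and its part was not tested. Endothelial-like cells had Fgf1 at 110.1 to 191 CPM in lung and 0.989 to 1.11 CPM in cortex, and Fgfr3 at 120.3 to 272 CPM in lung and 3.85 to 4.01 CPM in cortex. Fgfr1 in endothelial-like cells, at 18.5 to 30.1 and 23.4 to 26.4 CPM, overlapped between the organs.

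Pericyte-like cells had Spry1 at 173.5 to 215 CPM in lung and 414 to 492 CPM in cortex, Fgfr1 at 4.69 to 18.4 and 60.7 to 73.8 CPM, and Spry2 at 85.0 to 107.7 and 166 to 178 CPM. With each cell assigned by its own markers, Spry1 was 215 to 322 CPM in lung and 424 and 486 CPM in cortex, and Fgfr1 was 0 to 38.1 and 58.7 and 73.6 CPM, so both stayed higher in cortex. RNA outside cells of the cortex held Fgfr1 at 88.2 and 67.8 CPM in Nodal control and Nodal iPCKO, while microglia- and endothelial-like cells of the same libraries had 2.00 to 3.48 and 23.4 to 26.4 CPM, below the pericyte-like level. The part of this RNA in the Fgfr1 difference was not tested. Spry1 outside cells was 144 to 257 CPM in lung and 74.8 and 78.9 CPM in cortex. Spry2 then overlapped, at 89.7 to 168 CPM in lung and 163 and 175 CPM in cortex. Fgf1, at 95.6 to 166 CPM in lung and 3.64 to 6.57 CPM in cortex by clusters, overlapped as well in that assignment, at 10.5 to 33.7 and 8.11 and 10.9 CPM, as did Fgf2 at 5.44 to 35.8 and 10.3 and 12.7 CPM. Fgfr2, at 186 to 259 CPM in lung and 84.9 and 96.9 CPM in cortex, lay below RNA outside cells in both organs, whose part in its difference was not tested.

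The genes whose pattern over 56 combinations of library and cell type was most like that of each member were found by Pearson's r of log2(CPM + 1) over 13420 genes. The points share libraries, cells and depth, so the values are descriptions without a test. Fgf7 and Fgf10 were each other's closest gene (r = 0.957), and for both Dpt came next (0.915 and 0.904). Fgf2 was closest to Loxl1 (0.926), Sod3 (0.915) and Epha3 (0.911). Fgf1 was closest to Wwc1 (0.875) and Fgf18 to Scx (0.805). Among the receptors, Fgfr1 was closest to Rhobtb3 (0.890), Fgfr2 to Neat1 (0.823) and Fgfr3 to Celsr2 (0.691), the lowest of the 10. Spry1 was closest to Rbms3 (0.789) and Spry2 to Dlg5 (0.818), so neither Sprouty gene was the closest gene of the other.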

How the data were processed

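The authors deposited estimated counts of UMIs per gene and barcode, made with STARsolo (STAR 2.7.10a, in their notes) on GRCm39 with Gencode annotation, exonic counting, no cell filter and reads of several positions shared by an EM step, so that counts need not be whole. They were summed as deposited and rounded for intervals. Here, barcodes with at least 1500 UMIs (700 in the Hgf pair) were kept, those beyond 3 MADs of mitochondrial share or the 99.5th percentile of UMIs were removed, and doublets were removed with scrublet (0.833% to 3.68%). Scanpy 1.11.5 used 3000 variable genes, 50 components, 30 neighbours and Leiden resolution 2. A cluster was named where at least 3 markers were detected, their relative level reached 0.25, no other class came over 0.5 times it (0.6 for related classes), and its 10 leading genes held a marker of the class and did not go against the name; leaving platelet- and tuft-led clusters unnamed was decided after the clusters were seen. Levels are CPM of the class with exact Poisson 95% intervals, which cover counting error only. Every member is named, with the list genes that had most UMIs. Members and lists were chosen with earlier results of these data known. With 1 library per genotype there was no test. Alternatives changed assignment, resolution, minimum UMIs, doublets, scaling, the UMI filter and the fold. scipy 1.17.1 gave intervals. On simulated counts the ratio script was tested for known folds.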

Additional observations from a re-analysis of the deposited data

How the results depend on the processing

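No paired analysis was possible because each genotype was 1 library. The number of combinations past the fold moved by over 1.5 times where the rule itself changed. With a filter of 1 UMI it was 25 in the Bdnf pair, 50 in the Hgf pair, 23 in the Nodal pair and 40 between the controls. With 2-fold it was 4, 10, 6 and 14. Counting every interval that left out 0 gave 46, 17 and 44 in the Bdnf pair, the Nodal pair and between the controls. A filter of 50 UMIs gave 3 in the Nodal pair, each library clustered separately gave 7 there, and a minimum of 3000 UMIs gave 14 in the Hgf pair and 14 between the controls, with fewer classes left. Without the classes whose clusters held mostly 1 library, added after seeing the data, the Hgf pair had 15. Shares of all genes were not computed under these alternatives, so the counts stand without them. The class with the highest median stayed the same for 13 of 20 gene and organ pairs with separate clustering, 14 at higher resolution, 15 at 3000 UMIs and 17 with each cell assigned by its own markers. At 3000 UMIs, myofibroblast- and matrix fibroblast-like cells no longer reached 50 cells in both Hgf libraries, and the highest lung class changed for Fgf2, Fgf7 and Fgf10 (adventitial fibroblast-like) and for Fgf18 and Spry1 (AT1-like). Lung and cortex did not overlap in 13 of 20 at higher resolution and in 8 of 10 at 3000 UMIs. 3 named ratios past the fold reversed: Fgfr3 in myofibroblast-like cells of the Bdnf pair (-0.47, separate clustering), Fgfr3 in endothelial-like cells of the Hgf pair (-0.14, 3000 UMIs) and Fgfr2 in smooth muscle-like cells of the Hgf pair (0.28, each cell by its own markers), and the cause was not tested. Fgf1 in pericyte-like cells of the Bdnf pair, under the fold by clusters, turned from -0.27 to 1.56 with each cell by its own markers. Of 464 recomputed ratios, 425 stayed within the interval of the reported value and 36 left it without reversing a called direction. Median-of-ratios scaling shifted all genes by over 0.1 in Bdnf smooth muscle-like (-0.12) and Hgf adventitial (0.22), club (-0.18) and matrix fibroblast-like cells (0.14). Depth was lower in the Hgf libraries, so combinations under 20 UMIs there (31 of 110) could not be compared.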
